A study of Mus musculus with 64 samples.

Results

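The response of the Angelman hippocampus to continuous corticosterone (CORT) was examined in 9 of the 64 samples of the series, 5 AS CORT and 4 AS vehicle mice. All 9 were adult males, 10 to 18 weeks old, of an F1 hybrid of C57BL/6J and 129sv, and carried a maternally inherited Ube3a allele without exon 5 (Ube3a m-/p+), the genotype called AS. AS CORT mice (H7, H8, H10, H16 and H18) had received a subcutaneous pellet of 20 mg CORT with 80 mg cholesterol and AS vehicle mice (H2, H11, H14 and H19) one of 100 mg cholesterol, and the left hippocampus was collected after 5 days. The members were chosen by these labels, and a further AS vehicle library, H9, was left out as in the study. The deletion was shared by treated and control mice and, being constitutive, was present in all cells, whereas the paternal allele is silenced mainly in neurons, so that glia retain some UBE3A. Each library was 1 mouse, and WT mice of the same cohort and age (5 CORT and 4 vehicle mice, without H13, also left out by the study) with the same pellets served to place the response beside that of mice with UBE3A.

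CORT acts through the mineralocorticoid receptor (MR, Nr3c2), which has a high affinity and is occupied at low hormone levels, and through the glucocorticoid receptor (GR, Nr3c1), which is engaged when levels are high. Ligand-bound GR moves to the nucleus and binds glucocorticoid response elements, from which it raises genes such as Fkbp5, Sgk1 and Tsc22d3, and it restrains inflammatory transcription factors. In the hippocampus both receptors occur in pyramidal and granule neurons, and GR is also present in astrocytes, microglia, oligodendrocytes and the vasculature.

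The sequences below show where letters of a GR response element stand near the start of raised genes, since this element is where the hormone signal meets the gene. The canonical element GAACANNNTGTTC, a pair of inverted 5-letter arms around 3 free bases that reads the same on both strands, was searched for in RefSeq windows of 300 bases (GRCm38.p6, 250 before to 50 after each annotated start). It occurred without a mismatch in the windows of 2 of 11154 tested genes with a window (0.0179%). One of these was Sgk1, a kinase gene that controls ion channels and transporters, which rose in AS CORT mice. The other, Pot1b, did not pass the test (log2 fold change 0.09, adjusted p = 0.786). The Sgk1 window lies at chr10:21993640-21993939 on the + strand, and the capitals mark the element, 188 bases before the start.
Sgk1: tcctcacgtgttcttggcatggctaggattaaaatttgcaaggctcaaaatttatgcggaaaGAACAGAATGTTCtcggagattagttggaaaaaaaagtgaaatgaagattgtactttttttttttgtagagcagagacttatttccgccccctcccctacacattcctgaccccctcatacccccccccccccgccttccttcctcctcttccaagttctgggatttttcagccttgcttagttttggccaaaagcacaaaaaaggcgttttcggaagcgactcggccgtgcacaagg
With 1 mismatch allowed among the 10 fixed letters, a match stood in the windows of 4 of 230 raised genes (1.74%), 3 of 181 lowered genes (1.66%) and 89 of all 11154 genes (0.798%). The other raised genes were Fam107a, Mt1 and Map3k6, shown with 30 bases on either side of the match in capitals, at chr14:8309855-8309927 (- strand), chr8:94178965-94179037 (+ strand) and chr4:133240607-133240679 (+ strand).
Fam107a: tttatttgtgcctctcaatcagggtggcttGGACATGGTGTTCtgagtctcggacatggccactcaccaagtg
Mt1: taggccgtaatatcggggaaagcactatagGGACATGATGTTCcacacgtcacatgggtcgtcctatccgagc
Map3k6: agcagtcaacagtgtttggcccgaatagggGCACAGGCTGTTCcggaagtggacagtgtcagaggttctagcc
These counts are a description of letters near the start and say nothing of binding, or of elements farther away.

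Each AS library held 21626613 to 21783009 counts on genes. The level of a gene is given in CPM, its counts scaled to library size, and 3 counts, taken as the floor, correspond to 0.138 to 0.139 CPM. CPM values were normalized by the trimmed mean of M values (TMM) and are always given in the order H2, H11, H14 and H19 for AS vehicle mice and H7, H8, H10, H16 and H18 for AS CORT mice. Ube3a (ENSMUSG00000025326, GRCm38 chromosome 7, 59228750 to 59311536), the deleted gene, was at 80.1, 77.9, 96.2 and 69.2 CPM in AS vehicle and 97.5, 89.1, 83.8, 89.3 and 70.6 CPM in AS CORT mice, and at 83.5 ± 9.86 CPM in WT vehicle mice (SD, n = 4). The AS and WT levels overlapped. Counts over the whole gene do not single out exon 5 or an allele, the antisense transcript of the locus overlaps the gene, and the strand setting of the counting is not given in the sources used here, so this value does not check the genotype. CORT did not pass the test for Ube3a in AS mice (log2 fold change 0.09, SE 0.097, adjusted p = 0.75).

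Neighbouring tissue was present in unequal amounts. The mean log2 CPM of 12 thalamus markers was 5.08 in the AS vehicle library H14 and 2.94 to 3.12 in the other 8 AS libraries, and that of 11 measured choroid plexus markers ran from 1.63 to 2.77 in AS vehicle and from 0.439 to 3.63 in AS CORT mice, with H7 lowest and H16 highest. Among WT vehicle mice, H4 was highest in thalamus markers (4.30) and H6 and H17 in choroid plexus markers (3.98 and 5.19). Hippocampal neuron markers were present in every AS library (CA1 markers 4.98 to 6.41, lowest in H14). Striatum and blood markers held 0 calls of 11 and 7 with edgeR (0 and 1 at an unadjusted p-value under 0.05, which 15.2% of all genes tested met, and 0 and 0 with DESeq2), choroid plexus markers 0 of 11 (0 and 0) and thalamus markers 0 of 12 (5 and 1). The part of neighbouring tissue in the results was not tested. Several counts are also given without H4 and H14 or without H6 and H17.

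Continuous CORT raised 303 genes and lowered 261 genes in the AS hippocampus among 14949 genes tested with the quasi-likelihood test of edgeR at an adjusted p-value under 0.05, 2.03% and 1.75% of the genes and 3.77% together. Protein-coding genes made up 540 of the 564. The raised genes reached further: 60 rose by more than 1 on the log2 scale and 18 fell by as much, although the medians over called genes were alike (0.49 and -0.49). AS CORT and AS vehicle libraries did not overlap for 483 of the 564 called genes, against 6.80% of all genes tested. Without H4 and H14 the call was made for 553 genes, of which 430 were among the 564, and without H6 and H17 for 547, of which 511 were. Each AS library left out in turn gave 362 (without H11) to 608 genes (without H2), and all 20 libraries, H9 and H13 included, gave 221, of which 213 were among the 564. Of 85 named genes past the threshold, 36 lost their call with all 20 libraries.

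**Figure D1:**
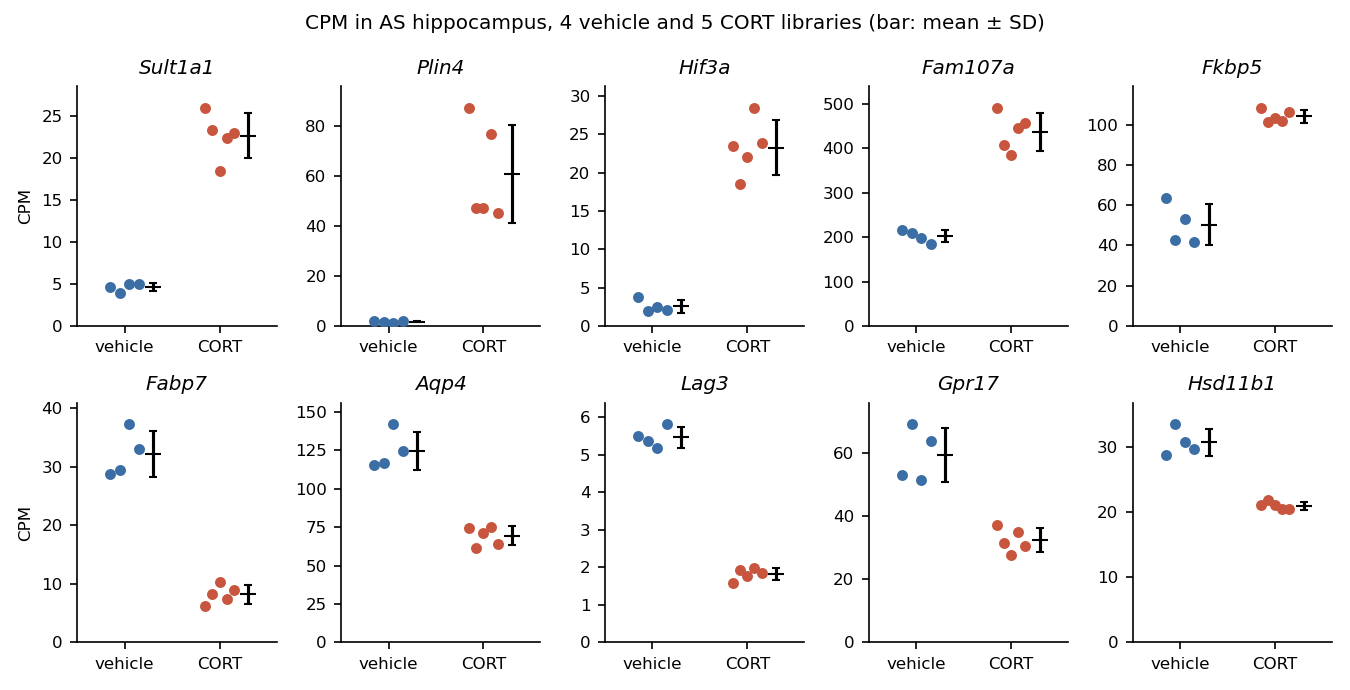
CPM (y axis, from 0) of 10 genes in the 4 AS vehicle (blue) and 5 AS CORT (red) libraries, each point 1 mouse, with mean and SD in black. No gene shown has overlapping groups: Plin4 goes from 1.33 to 2.04 CPM in vehicle to 45.3 to 87.3 CPM in CORT mice, and Fabp7 from 28.8 to 37.3 CPM to 6.15 to 10.3 CPM.

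Most GR target genes rose in AS CORT mice. Their list of 40 genes had been assembled with earlier results of these data known, so its direction is a description. Of its 38 members tested, 27 rose and 0 fell with edgeR, beside 2.03% and 1.75% of all genes tested (31 and 0 at an unadjusted p-value under 0.05, 27 and 0 with DESeq2), with a median log2 fold change of 0.79 against -0.0027 for all genes tested. The raised members ran from 0.400 (Klf9, a zinc finger regulator) to 5.12 (Plin4). In all 27 the AS CORT libraries lay above every AS vehicle library, as they did for 270 of all 303 raised genes. Without H4 and H14, 24 members rose, and with all 20 libraries 18.

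Sult1a1, a phenol sulfotransferase, had the smallest p-value of all genes. It was 4.59, 3.94, 4.95 and 4.95 CPM in AS vehicle mice and 25.9, 23.3, 18.4, 22.4 and 22.9 CPM in AS CORT mice. Every treated library was above the highest control library, and the log2 fold change was 2.29 (SE 0.097, adjusted p = 3.55e-11). Whether reads of Sult1a1 are shared with other genes was not tested. Plin4 (GRCm38 chromosome 17, 56100591 to 56109803), which encodes a coat protein of lipid droplets, was near the low end of the measured range in AS vehicle mice, at 2.04, 1.74, 1.33 and 1.86 CPM, and rose to 87.3, 47.3, 47.2, 76.7 and 45.3 CPM. This was the largest rise of any called gene, 34.8-fold, with a log2 fold change of 5.12 (SE 0.32, adjusted p = 1.05e-08).

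Hif3a (GRCm38 chromosome 7, 17031507 to 17062427), a hypoxia-inducible factor subunit that can oppose the other subunits, was 3.799, 1.92, 2.43 and 2.14 CPM in AS vehicle and 23.5, 18.5, 21.98, 28.4 and 23.9 CPM in AS CORT mice, a log2 fold change of 3.18 (SE 0.26, adjusted p = 5.18e-07). Fkbp5, the co-chaperone that lowers the affinity of GR for its ligand and is itself induced by GR, was 63.5, 42.8, 53.3 and 41.9 CPM and 108, 101, 103, 102 and 106 CPM. The treated libraries were close together, while the control library H2 stood above the other 3, and the log2 fold change was 1.05 (SE 0.11, adjusted p = 1.3e-05). Fam107a, an actin-associated stress gene, went from 215, 210.5, 198 and 185 CPM to 492, 407, 385, 446 and 456 CPM (log2 fold change 1.11, SE 0.065, adjusted p = 6.03e-09). Sdc4, a cell surface proteoglycan, rose by 0.75 (adjusted p = 1.57e-05).

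The genes whose promoter letters are printed above rose as well. Sgk1 was 71.9, 49.9, 49.9 and 58.4 CPM in AS vehicle and 217, 152, 149, 194 and 155 CPM in AS CORT mice, with H7 and H16 highest, and its log2 fold change was 1.59 (SE 0.18, adjusted p = 1.88e-05). Mt1, a metallothionein that binds zinc, was 221, 189, 174 and 176 CPM and 434, 379, 336, 364 and 351 CPM (log2 fold change 0.97, SE 0.12, adjusted p = 3.85e-05). Its neighbour Mt2 rose to a like extent (0.96). Map3k6, a stress-activated kinase gene, was low throughout, at 1.76, 0.825, 1.74 and 0.727 CPM in control and 5.64, 5.29, 4.18, 4.25 and 5.43 CPM in treated mice (log2 fold change 1.97, SE 0.25, adjusted p = 8.07e-05). Tsc22d3, which encodes the anti-inflammatory protein GILZ, rose by 0.78 (adjusted p = 0.00118) and Klf15, a regulator of amino acid and glucose metabolism, by 0.88 (adjusted p = 3.44e-05). Sgk1, Map3k6, Tsc22d3 and Klf15 were named after their values were seen. Among the members that did not pass the test were Per1 (0.31, adjusted p = 0.236), Dusp1 (0.22, adjusted p = 0.698) and Angptl4 (0.018, adjusted p = 0.987).

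Individual mice differed in the level of these genes. Among AS CORT mice, H7 had the highest CPM for 26 of the 38 GR target genes (68.4%), against 22.7% of all genes tested, and H8 for 0 of 38. Among AS vehicle mice, H2 was highest for 21 of 38 (55.3%), against 27.9% of all genes. Hormone levels of the mice were not analysed here. Leaving out H7 left 24 raised members and leaving out H2 left 27.

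**Figure D2:**
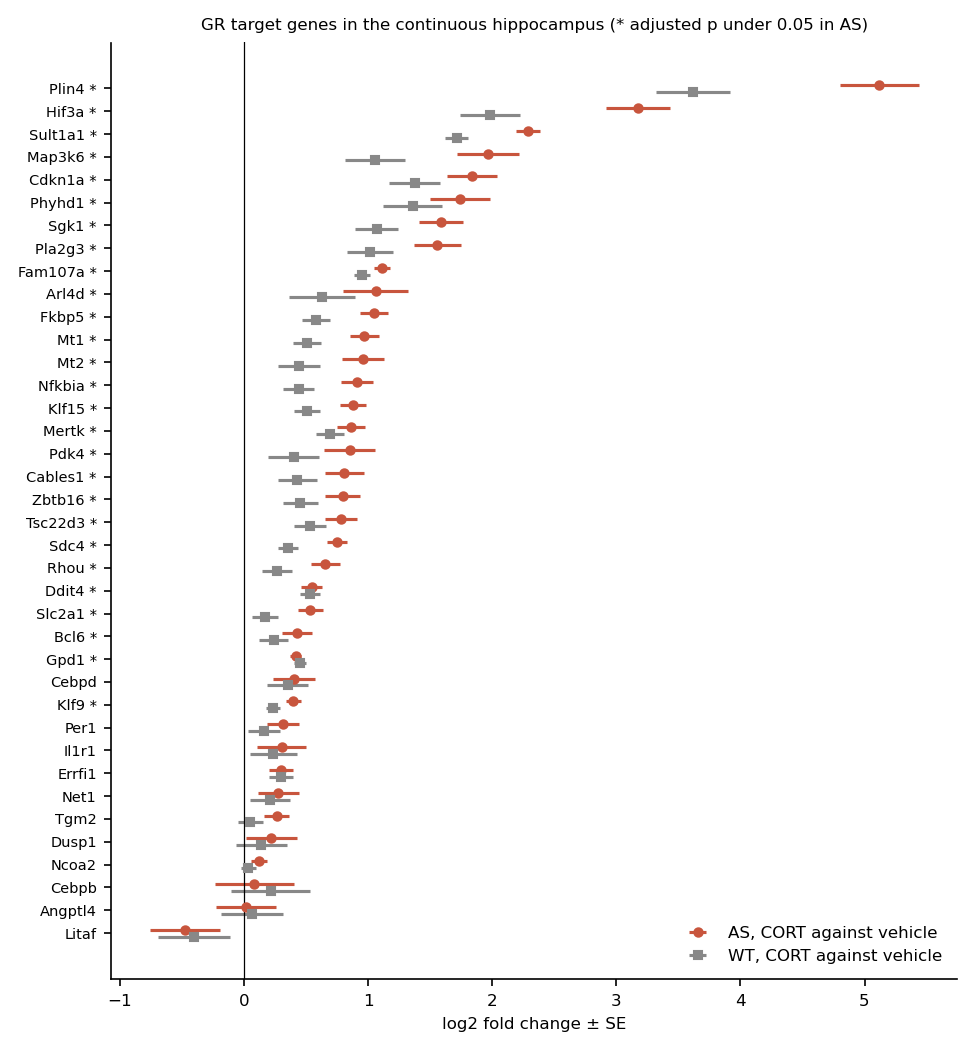
Log2 fold change by continuous CORT with its standard error (x axis) of the 38 tested GR target genes (y axis, ordered by the AS value) in AS (red circles) and WT (grey squares) mice. All 27 genes with an asterisk, which passed the test in AS, lie above 0 in both genotypes.

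Of the receptors, the MR gene Nr3c2 fell and the GR gene did not pass the test. Nr3c2 was 205, 219.6, 221 and 243 CPM in AS vehicle mice and 178, 183, 171, 192 and 164 CPM in AS CORT mice, without overlap (log2 fold change -0.32, SE 0.077, adjusted p = 0.0206), a call that was lost in 4 of 21 alternatives, those without H11, H18 or H19 and that with all 20 libraries, where the log2 fold change was -0.081. Nr3c1 was 83.9, 108, 94.7 and 105 CPM and 95.4, 72.97, 64.9, 85.97 and 67.8 CPM, with H7 and H16 of the treated mice inside the range of the controls (log2 fold change -0.34, SE 0.11, adjusted p = 0.1). Hsd11b1, which encodes the enzyme that regenerates active CORT inside cells, fell from 28.7, 33.4, 30.7 and 29.6 CPM to 21.002, 21.9, 21.1, 20.4 and 20.4 CPM, again without overlap (log2 fold change -0.55, SE 0.078, adjusted p = 0.000277). Its call was lost with all 20 libraries. Of 27 tested genes for receptors, chaperones and hormone handling, Fkbp5 rose and Nr3c2 and Hsd11b1 fell (3.70% and 7.41%, beside 2.03% and 1.75% of all genes tested).

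Astrocyte genes moved in both directions. Of 25 astrocyte markers tested, 7 rose and 6 fell (beside 2.03% and 1.75% of all genes tested), with a median log2 fold change of -0.026. The mean log2 CPM over the list was 6.84 to 6.99 in AS vehicle and 6.92 to 7.09 in AS CORT mice. Members thus rose and fell beside each other, and H7 stood highest of the treated mice. Without H4 and H14, 7 rose and 5 fell, and with all 20 libraries 3 rose and 4 fell. In bulk tissue, fewer cells of a type and less RNA per cell cannot be told apart.

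Fabp7 (GRCm38 chromosome 10, 57784881 to 57788450), a fatty acid binding protein of astrocytes and radial glia-like stem cells, had the smallest p-value of the lowered genes. It was 28.8, 29.6, 37.3 and 33.1 CPM in AS vehicle mice and 6.15, 8.27, 10.3, 7.399 and 8.903 CPM in AS CORT mice (log2 fold change -1.97, SE 0.13, adjusted p = 2.88e-08). The highest treated library was well below the lowest control. Aqp4, the water channel of astrocyte endfeet, was 115, 117, 142 and 124 CPM and 74.5, 61.5, 71.4, 75.1 and 64.1 CPM (log2 fold change -0.85, SE 0.077, adjusted p = 2.48e-06). Gfap, an intermediate filament protein of astrocytes, fell by 0.55 and Slc7a10, a serine transporter, by 0.43 on the log2 scale. In the opposite direction, Etnppl, which encodes an ethanolamine-phosphate lyase of astrocytes, was 2.59, 3.02, 6.18 and 2.14 CPM in AS vehicle mice and 43.6, 31.9, 22.5, 24.4 and 25.3 CPM in AS CORT mice (log2 fold change 3.08, SE 0.26, adjusted p = 8.04e-07), a call lost with all 20 libraries, where the log2 fold change was 1.17. Aldoc, a glycolytic aldolase, was 696, 668, 657 and 678 CPM and 1154, 1094, 999, 989 and 1096 CPM, so that the abundance of an already highly expressed gene rose by 0.66 on the log2 scale (adjusted p = 5.53e-06). Gjb6, a connexin that joins astrocytes through gap junctions, rose by 0.87 and Glul, the glutamine synthetase, by 0.43, whereas Gja1, another connexin of astrocytes, fell by 0.23 on the same scale. The call of Gjb6 was lost with all 20 libraries.

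Other genes with the smallest p-values lay in both directions. Among those raised, without overlap between the groups, were Htra1, a secreted serine protease (0.61), Smox, the spermine oxidase (0.66), Cyp4f15, a fatty acid hydroxylase (1.18), Acot11, an acyl-CoA thioesterase (0.79), and Gstm1, a glutathione transferase (0.54), with adjusted p-values from 2.61e-07 to 7.45e-06. Htra1 shows the precision of the abundant ones, with 128, 139.8, 136 and 132 CPM in AS vehicle and 220.0, 187, 208, 201 and 209.5 CPM in AS CORT mice. Among those lowered were Tst, a mitochondrial sulfurtransferase (-0.802), Slc38a3, a glutamine transporter (-0.67), Fgfrl1, a decoy-like FGF receptor (-0.57), Kcne1l, a potassium channel accessory subunit (-1.298), Chil1, a chitinase-like protein (-0.76), Tril, a Toll-like receptor partner (-0.68), and 2810459M11Rik (-0.64), with adjusted p-values from 2.88e-08 to 1.73e-05. Tst was 26.1, 29.1, 28.4 and 29.2 CPM in AS vehicle and 15.7, 15.2, 16.7, 17.2 and 16.1 CPM in AS CORT mice, with little spread in either group.

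The largest changes by size, among called genes with a mean of at least 1 CPM in the higher group, were the rises of Plin4, Rtp1, Hif3a, Etnppl and Fam83d and the falls of Gkn3, Fabp7, Myoc, Lag3 and Serpind1. Rtp1, a receptor transporter of olfactory neurons, went from 0.834, 0.0458, 0.367 and 0.136 CPM to 11.4, 12.4, 5.39, 5.23 and 8.67 CPM (log2 fold change 4.62, SE 0.59, adjusted p = 9.13e-05), with H11 and H19 at or under the floor of 3 counts. Fam83d, a mitotic spindle protein, went from 1.39, 0.962, 0.504 and 0.909 CPM to 10.4, 5.91, 5.53, 9.48 and 6.21 CPM (log2 fold change 2.99, SE 0.33, adjusted p = 1.88e-05). Gkn3, a marker of arterial endothelium, went from 3.29, 2.66, 3.53 and 1.68 CPM to 0.893, 0.709, 0.465, 0.509 and 0.835 CPM (log2 fold change -2.02, SE 0.26, adjusted p = 9.48e-05). Myoc (-1.67), a secreted glycoprotein of astrocytes and meninges, and Serpind1 (-1.49), a serine protease inhibitor, also fell, both without overlap.

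Microglia markers fell or did not pass the test. Of 20 tested, 8 fell and 0 rose with edgeR, beside 1.75% and 2.03% of all genes tested (13 and 0 at an unadjusted p-value under 0.05, which 15.2% of all genes met in either direction, and 8 and 0 with DESeq2), and the median log2 fold change was -0.26. The mean log2 CPM over the list was 4.20 to 4.35 in AS vehicle mice and 3.86 to 4.06 in AS CORT mice, without overlap. Lag3, an inhibitory immune receptor, was 5.51, 5.36, 5.18 and 5.82 CPM in AS vehicle mice and 1.597, 1.94, 1.77, 1.99 and 1.85 CPM in AS CORT mice (log2 fold change -1.58, SE 0.18, adjusted p = 3.27e-05). Fcrls, an Fc receptor-like gene of resident microglia, was 10.4, 11.2, 11.5 and 11.2 CPM and 4.13, 5.104, 6.78, 5.78 and 5.38 CPM (log2 fold change -1.03, SE 0.12, adjusted p = 3.09e-05). No library crossed over for either gene, and among treated mice Fcrls was lowest in H7 and highest in H10. P2ry12, the purinergic receptor that guides microglial processes, fell by 0.56, Trem2, a lipid sensor, by 0.53, and Cx3cr1, the fractalkine receptor, by 0.35 on the log2 scale. Other defining markers did not pass the test, among them Csf1r (-0.11, adjusted p = 0.324) and C1qa (0.08). Of the list, 12 of the 20 were not past the threshold. The count of lowered markers was 5 without H8 or without H11, and 7 without H4 and H14.

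Related immune lists had negative medians, and each held between 1 and 3 lowered genes, where 1.75% of all genes tested were lowered. Of 25 tested interferon-stimulated genes 3 fell (Gbp3, Gbp4 and Gbp9, guanylate-binding proteins) with a median of -0.34, and of 11 tested genes of antigen presentation 1 fell (H2-D1, -0.26, adjusted p = 0.0484) with a median of -0.27. The calls of Gbp3, Gbp9 and H2-D1 were each lost in at least 10 of 21 alternatives. Cd74, the invariant chain of MHC class II, was 1.48, 2.06, 1.65 and 1.36 CPM in AS vehicle mice and 0.376, 0.756, 0.325, 0.7399 and 0.417 CPM in AS CORT mice, without overlap but with a wide error (log2 fold change -1.64, SE 0.496, adjusted p = 0.0792).

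In the oligodendrocyte lineage, 3 of 12 tested precursor markers and 1 of 25 myelin genes fell, beside 1.75% of all genes tested. Gpr17, a receptor of differentiating precursors, was 52.9, 69.01, 51.3 and 63.6 CPM in AS vehicle and 37.2, 31.3, 27.7, 34.96 and 30.6 CPM in AS CORT mice (log2 fold change -0.87, SE 0.103, adjusted p = 3.44e-05), and Cspg5, a proteoglycan, and C1ql1, a secreted synaptic protein, fell by 0.31 and 0.47. With all 20 libraries the calls of Cspg5 and C1ql1 were lost, that of C1ql1 also without H19. Pdgfra, the receptor that defines resting precursors, did not pass the test (0.17, adjusted p = 0.413). The lowered myelin gene was Opalin (log2 fold change -1.19, SE 0.32, adjusted p = 0.0467), and its groups overlapped and its call was lost in 10 of 21 alternatives. Myelin markers were at a mean log2 CPM of 5.49 to 6.75 in AS vehicle mice, lowest in H14, and of 5.74 to 6.42 in AS CORT mice. Mbp, the myelin basic protein, was 2032, 2527, 1099 and 2856 CPM and 2594, 1508, 1859, 2288 and 1639 CPM, so that the spread among control mice exceeded the difference between the groups (-0.11, adjusted p = 0.925).

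**Figure D3:**
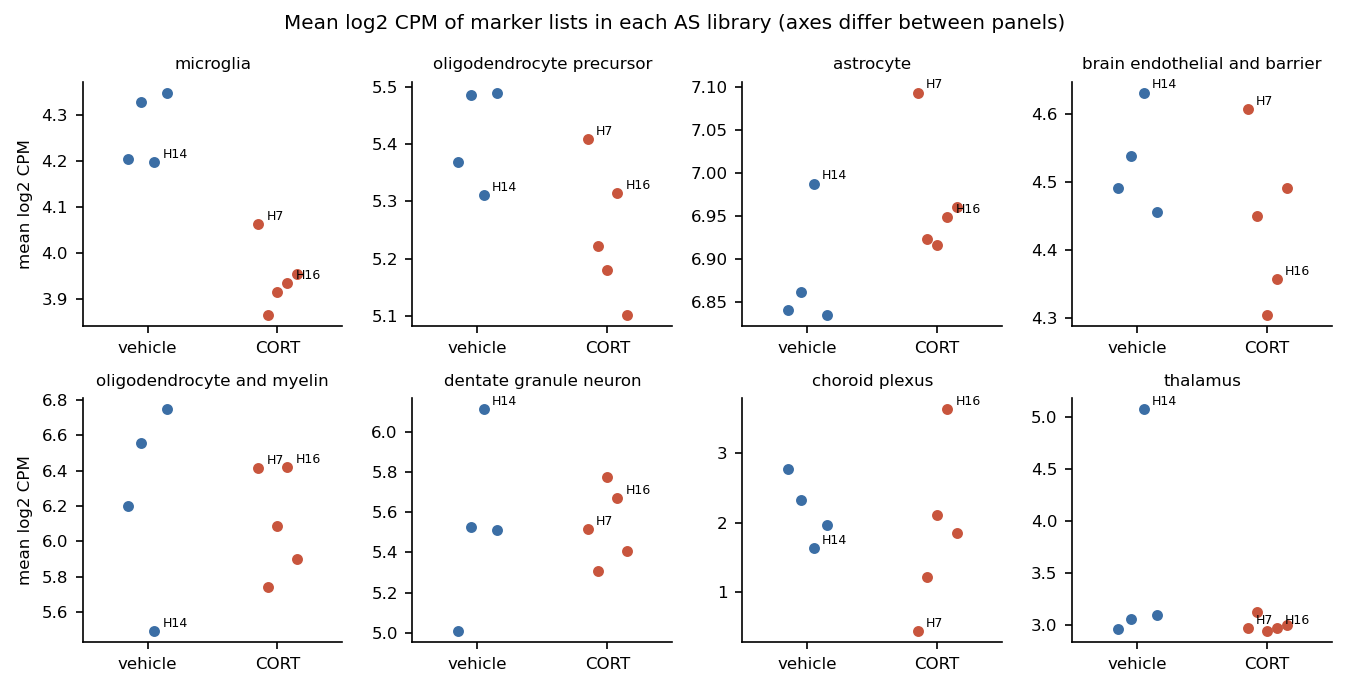
Mean log2 CPM (y axis, which differs between panels) of 8 marker lists in the 4 AS vehicle (blue) and 5 AS CORT (red) libraries, each point 1 mouse. Of the lists plotted, the groups do not overlap for microglia alone (4.20 to 4.35 against 3.86 to 4.06), and H14 stands apart in thalamus markers at 5.08.

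Genes of the blood-brain barrier were altered in both directions. Of 27 endothelial and barrier markers tested, 8 fell and 2 rose (29.6% and 7.41%, beside 1.75% and 2.03% of all genes tested). Mfsd2a, the transporter of docosahexaenoic acid that also keeps transcytosis low, was 21.2, 17.1, 19.3 and 15.2 CPM in AS vehicle and 43.4, 40.5, 35.4, 34.9 and 40.02 CPM in AS CORT mice (log2 fold change 1.09, SE 0.13, adjusted p = 3.44e-05). Slc2a1, the glucose transporter GLUT1, rose by 0.54 (adjusted p = 0.00442). In contrast Slco1c1, a thyroid hormone transporter, was 59.1, 62.96, 56.4 and 57.1 CPM and 46.5, 41.9, 37.8, 40.05 and 42.3 CPM (log2 fold change -0.498, SE 0.067, adjusted p = 0.000141). The calls of Slc2a1 and Slco1c1 were lost with all 20 libraries. Slc16a1, the monocarboxylate transporter MCT1, fell by 0.67 and Tek, the angiopoietin receptor, by 0.59 on the log2 scale. The count of lowered members was 4 without H10, H11, H14 or H16 and 5 without H8, each left out alone, and 5, with 4 raised, without H4 and H14. Of 13 pericyte and smooth muscle markers 3 fell (Pdgfrb, Rgs5 and Vtn, by 0.31 to 0.41), 23.1% beside the same 1.75%. Of 19 fibroblast markers 2 rose (10.5%, beside 2.03%), of which Ptgds, the prostaglandin D synthase that meninges, choroid plexus and oligodendrocytes also express, was 155, 207, 176 and 166 CPM and 614, 347, 339, 570.4 and 419 CPM. With all 20 libraries its call was lost and its log2 fold change was 0.49 instead of 1.38, with 931 CPM in the AS vehicle library H9. The other raised member, Spp1, a secreted phosphoprotein, was at 1.32, and at -0.044 and not called with all 20 libraries. H7 was lowest of the AS CORT mice in choroid plexus markers and H16 highest, and both were highest in Ptgds. Both were also highest of the AS CORT mice in myelin markers, at a mean log2 CPM of 6.42 each. The source of the Ptgds change was not tested.

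Some progenitor, matrix and metabolic genes were called. The raised share was 19.2% for glucose handling, 22.2% for metallothioneins and zinc transporters, 14.3% for hypoxia-related genes and 13.3% for lipid genes, beside 2.03% of all genes tested, and the lowered share was 12.5% for progenitor genes, beside 1.75%. These shares rest on 2 to 5 called genes a list. Hif3a, Ddit4, Slc2a1, Mt1, Mt2, Plin4 and Pdk4 are also counted among the 27 raised GR target genes, so these lists are not separate from that one. Of 24 progenitor and neuroblast genes 3 fell, Fabp7, Hopx (-0.65) and Nes (-0.84), all of radial glia-like cells, while Dcx, a gene of neuroblasts, did not pass the test (-0.15, adjusted p = 0.618). The mean log2 CPM over this list was 4.15 to 4.32 in AS vehicle and 3.96 to 4.04 in AS CORT mice, without overlap, as for microglia. Of 24 tested cell cycle genes 1 rose, the inhibitor Cdkn1a (p21), from 3.06, 6.74, 5.09 and 5.45 CPM to 23.4, 14.1, 14.2, 20.1 and 19.2 CPM (log2 fold change 1.84, SE 0.204, adjusted p = 1.83e-05). Of 21 hypoxia-related genes, Hif3a, Ddit4 (0.55) and Slc2a1 rose, and of 9 metallothioneins and zinc transporters Mt1 and Mt2. Of 25 matrix genes, Ncan, the neurocan of perineuronal nets (-0.42), and Tnc, tenascin C (-1.18), fell, and Timp4, a metalloproteinase inhibitor, rose (0.36, but 0.19 and not called with all 20 libraries). Of 30 lipid genes 4 rose, Plin4, the lipase Pnpla2 (0.69), the pyruvate dehydrogenase kinase Pdk4 (0.85, lost in 6 of 21 alternatives) and the uncoupling protein Ucp2 (0.54, lost in 4 of 21 alternatives), and Fabp5, a fatty acid carrier, fell (-0.29). Without H4 and H14, 2 lipid genes rose. Of the 4 raised lipid genes, Plin4 alone kept its call with all 20 libraries. Of 26 genes of glucose handling 5 rose, among them Slc2a4, the insulin-responsive transporter GLUT4, from 1.53, 1.74, 1.56 and 1.68 CPM to 5.03, 3.78, 1.998, 3.93 and 3.895 CPM (log2 fold change 1.19, SE 0.21, adjusted p = 0.0018), and Txnip (0.74), an inhibitor of glucose uptake. With all 20 libraries none of these 26 was called, and Slc2a4 was at 0.54.

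Neuronal, heat shock and immediate early gene lists held between 0 and 2 calls each. With edgeR 0 members were called among 24 glutamate receptor subunits, 27 synaptic vesicle genes, 14 CA2 and CA3 markers, 20 heat shock genes and 21 immediate early genes. At an unadjusted p-value under 0.05 these lists held 8, 1, 3, 1 and 1 genes (15.2% of all genes tested), and DESeq2 called 1, 0, 1, 0 and 1 of them. Without H6 and H17, 1 immediate early gene fell and 1 CA2 and CA3 marker rose. Of other lists, 1 of 31 potassium channel subunits (Kcnn2, 0.43), 1 of 15 GABA receptor subunits (Gabrr2, 1.89, at 0.741, 0.504, 0.641 and 0.636 CPM and 4.37, 1.61, 1.63, 2.27 and 1.901 CPM, a call lost with all 20 libraries, where it was at 0.77 and H9 at 4.39 CPM) and 1 of 11 serotonin receptors (Htr2a, 0.78) rose, counts that in lists of this size lie near the 2.03% of all genes raised. Single members of region lists rose, namely Spink8 of CA1 (1.31), Pdzd2 of the dentate gyrus (0.91) and the interneuron peptide Vip (0.78), whose groups overlapped and whose call was lost in 6 of 21 alternatives. Ntrk2, the receptor of brain-derived neurotrophic factor that neurons and astrocytes express, rose from 554, 542, 566 and 531 CPM to 728, 666, 595, 689 and 637 CPM (log2 fold change 0.27, SE 0.058, adjusted p = 0.00917), while its ligand Bdnf did not pass the test (-0.12, adjusted p = 0.66). The calls of Kcnn2, Spink8, Pdzd2 and Ntrk2 were lost with all 20 libraries, and that of Htr2a without H14. Of 19 clock genes 1 fell (Rorb, -0.56), with overlap, a call lost in 10 of 21 alternatives. Of 26 neuropeptides and their receptors, Vip and Glp2r rose (2.04 for Glp2r, adjusted p = 0.0259, lost in 5 of 21 alternatives). At the Angelman locus 1 of 10 tested genes rose, Atp10a, a phospholipid transporter gene, from 8.11, 6.37, 5.77 and 5.23 CPM to 14.3, 12.3, 10.7, 10.8 and 12.8 CPM (log2 fold change 0.94, SE 0.19, adjusted p = 0.00771). Its call was lost with all 20 libraries, where its log2 fold change was 0.61 and H9 was at 14.5 CPM.

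**Figure D4:**
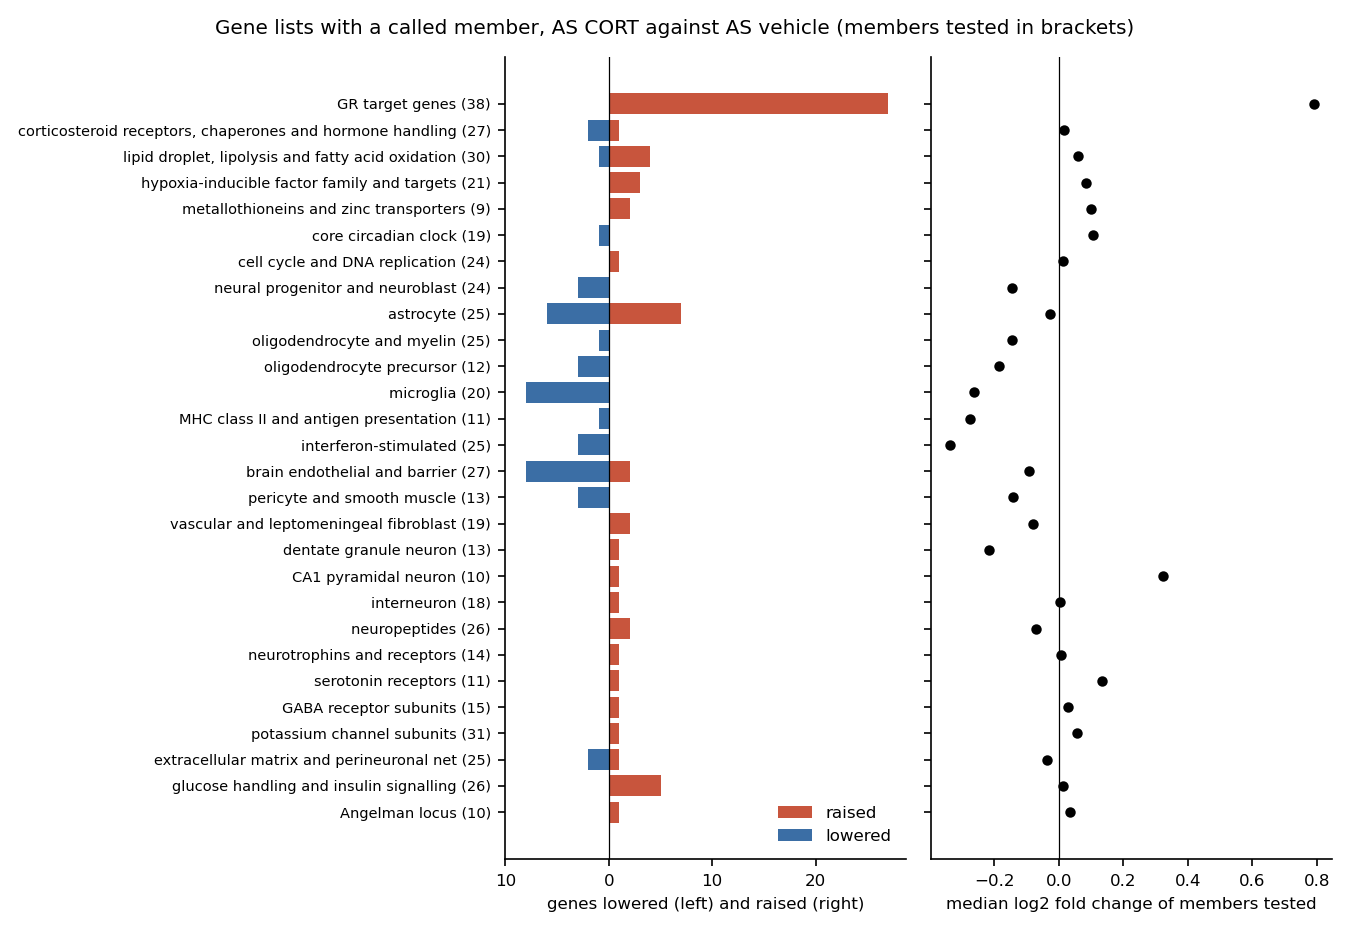
Left, numbers of genes raised (red, to the right) and lowered (blue, to the left) by continuous CORT in AS mice for each list with a called member, with the number tested in brackets. Right, the median log2 fold change of the members tested. GR target genes have 27 raised genes and a median of 0.79, and microglia 8 lowered genes and a median of -0.26.

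The study asked how the UBE3A-deficient brain responds to the hormone, so the same contrast in WT mice, who share no sample with the AS contrast, was set beside it. Both contrasts came from the same fit and share its estimate of the spread, so their calls are not fully independent. In WT mice 436 genes were called (120 raised and 316 lowered, 2.92% of genes tested). Of these, 248 were called in both genotypes, 44.0% of the AS calls and 56.9% of the WT calls, and all 248 had the same direction. Without H6 and H17, 179 genes were called in WT mice. Of the 316 genes called in AS mice alone, 310 had the same sign in WT mice and 207 had it with an unadjusted p-value under 0.05, whereas over all genes tested 65.3% had the same sign in both genotypes and 15.6% had such a p-value in WT mice. A call in one genotype alone does not show a difference between them. The test of the difference itself, the interaction, called 0 of 14949 genes with edgeR (561 at an unadjusted p-value under 0.05, 3.75% of genes) and 0 with the Wald test of DESeq2 (495 at an unadjusted p-value under 0.05), and the smallest adjusted p-value with edgeR was 1.

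**Figure D5:**
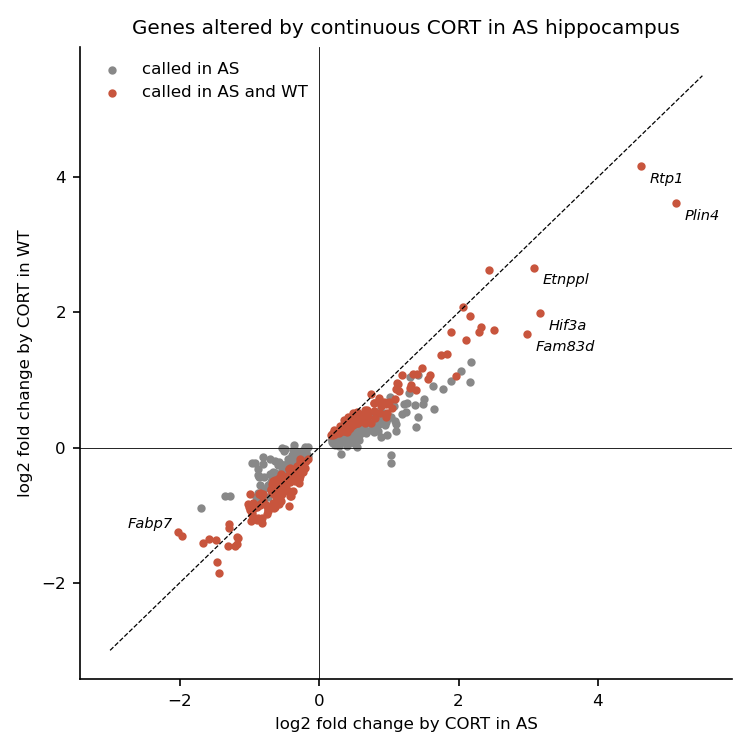
Log2 fold change by continuous CORT in AS (x axis) and WT mice (y axis) of the 564 genes called in AS mice, with the dashed line marking equality. Of these, 558 have the same sign in both genotypes, and the 248 called in both are shown in red.

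The 5 genes with the smallest interaction p-value were Sult1a1, Itpripl2, Aldh6a1, Pbxip1 and Gm47982, none past the threshold after adjustment (adjusted p = 1 with edgeR). Sult1a1 rose by 2.29 in AS and 1.71 in WT mice, and Aldh6a1, a mitochondrial enzyme of valine breakdown, by 0.41 in AS mice (0.25 and not called with all 20 libraries), with 0.03 in WT mice (adjusted p = 0.898). Pbxip1 fell by 0.55 in WT mice and was at -0.22 in AS mice (adjusted p = 0.0515). The GR target genes had interactions on one side: 34 of 38 were above 0, with a median of 0.35 against 0.00015 for all genes. With edgeR 13 had an unadjusted p-value under 0.05, beside 3.75% of all genes tested. Among them were Plin4 (5.12 in AS and 3.62 in WT mice), Hif3a (3.18 and 1.98), Fkbp5 (1.05 and 0.58) and Slc2a1 (0.54 and 0.17). Over the alternatives 30 to 36 members were above 0, and the median ran from 0.15 to 0.38. It was lowest without H4 and H14, libraries of vehicle mice of each genotype, where 7 members had an unadjusted p-value under 0.05. The median was 0.24 with 1 surrogate variable and with all 20 libraries, 0.27 without H7, 0.26 without H14 and 0.25 without H19. The size of this pattern thus moved with several settings. Of all genes tested, 7486 of 14949 had interactions above 0. Other lists leaned to either side. All 11 choroid plexus markers had interactions above 0 (median 2.14, with 9 at an unadjusted p-value under 0.05), as did 23 of 25 myelin genes (median 0.25), 22 of 25 astrocyte markers (median 0.08) and 16 of 19 fibroblast markers (median 0.32). Interactions above 0 were found for 1 of 12 thalamus markers (median -0.21), 1 of 7 blood markers (median -0.83), 3 of 11 striatum markers (median -0.26), 4 of 20 heat shock genes (median -0.079) and 7 of 27 synaptic vesicle genes (median -0.034). Choroid plexus markers were highest in the WT vehicle libraries H6 and H17, as given above. Without H6 and H17 the median of the GR target genes was 0.35 and 16 had an unadjusted p-value under 0.05, and with choroid plexus markers as a covariate these were 0.34 and 12. The part of other cell types in the interactions was not tested. Among lowered genes, the AS and WT values were -1.97 and -1.31 for Fabp7, -2.02 and -1.25 for Gkn3, -1.58 and -1.36 for Lag3, -0.56 and -0.55 for P2ry12 and -0.85 and -0.85 for Aqp4.

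Other adult male AS mice of the series, of the same age, collected 3 h after an injection of 3 mg/kg CORT or vehicle (6 and 6 mice), allowed the genes altered over 5 days to be followed at an early time. Of the 564 genes, 555 were measured there, 463 had the same sign, as 58.4% of all genes tested in both cohorts had. In the same direction 242 were called and in the opposite one 5, while 17.9% of all genes were called in the acute hippocampus in either direction. In that cohort all 6 AS CORT libraries and 2 of 6 AS vehicle libraries held 2640 to 2850 reads of low alignment quality, against 1877 to 2237 in the other 16, and this division cannot be told apart from treatment for most of the AS contrast. Against the 2 vehicle libraries on the same side of the division, 466 of the 555 genes had the same sign. This comparison reuses the same AS CORT libraries, and its share over all genes was not computed. The part of the division in these values was not tested. The log2 ratio of mean CPM of that narrower comparison is given beside each acute value as the value within the division. Adjusted p-values are those of the fit of all 24 acute libraries.

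The log2 fold changes at both times were set side by side. Fkbp5 was at 1.101 (1.104 within the division) after 3 h and at 1.05 after 5 days, and Cdkn1a at 2.01 (2.21 within the division) and 1.84. Plin4 was at 2.77 (3.43 within the division) and 5.12, and Hif3a at 1.36 (1.802 within the division) and 3.18. Of the called glial genes, some passed the test at 3 h in the direction of the continuous response and others did not. Those that did included Gjb6 at 0.67 (0.92 within the division, adjusted p = 8.29e-06), Mertk, a phagocytic receptor of the astrocyte list that rose by 0.86 over 5 days, at 0.54 (0.77 within the division, adjusted p = 0.00017), Glul at 0.202 (0.36 within the division, adjusted p = 0.0252), Cx3cr1 at -0.48 (-0.35 within the division, adjusted p = 4.67e-05) and P2ry12 at -0.25 (-0.12 within the division, adjusted p = 0.0326). Those that did not pass included the following. Etnppl was at 0.33 (0.44 within the division, adjusted p = 0.15), Aldoc at 0.0064 (0.086 within the division, adjusted p = 0.955), Aqp4 at 0.079 (0.17 within the division, adjusted p = 0.46) and Fcrls at -0.035 (0.034 within the division, adjusted p = 0.853). Fabp7, which fell over 5 days, was at 0.402 at 3 h (0.21 within the division, adjusted p = 0.0389). The cohorts differed in dose, route and time, and the difference between them was not tested.

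The liver of the same continuous cohort gave a tissue comparison. Of the 564 genes, 383 were measured in the liver as well. Of these, 249 had the same sign, as 54.3% of all genes tested in both tissues had, and 124 were called in the same direction and 44 in the opposite one, with 27.5% of all liver genes called in either direction. Fkbp5 (4.14, adjusted p = 1.6e-08), Fam107a (3.54, adjusted p = 0.00014), Mt1 (3.84, adjusted p = 6.77e-07) and Mfsd2a (3.09, adjusted p = 0.000441) had larger values in AS liver than in AS hippocampus, whereas Sgk1 did not pass the test there (0.062, adjusted p = 0.87). Aldoc rose in the hippocampus and fell in the liver (-1.49, adjusted p = 5.87e-05), and Hsd11b1 fell in the hippocampus and rose in the liver (0.698, adjusted p = 2.56e-06). The tissues were fitted separately and their difference was not tested.

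PCA on the 500 most variable genes of the 18 libraries gave AS CORT mice a higher mean score than AS vehicle mice on PC1 (32.3% of the variance, difference 7.83, exact permutation p = 0.0159) and PC2 (29.6%, difference 5.61, exact permutation p = 0.0317). Neither passed after adjustment over 4 components (adjusted p = 0.0635 for both by the exact permutation tests). The groups did not overlap on PC1, and on PC2 the AS CORT mouse H16 (-1.53) lay below the AS vehicle mouse H14 (0.89). The smallest p that 5 against 4 mice allow is 0.00794. On PC1, H14 was at -10.01 and the other AS vehicle mice at -1.52 to -0.521.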

How the data were processed

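Polyadenylated RNA from the left hippocampus of single mice was sequenced in stranded paired-end libraries. Per the labels, the authors checked reads with FastQC and MultiQC, aligned them to mm10 with STAR and counted reads per gene with HTSeq, and deposited raw counts per Ensembl gene. The annotation release and the strand setting are not given in the sources used here. Symbols and positions (GRCm38) came from GENCODE M21, which holds 55480 of the 55573 identifiers. Reads outside genes (4.65% to 5.63% per AS library) were left out of library sizes.

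A gene was kept if some group had over 20 normalized counts in 3 or more replicates, which left 14949. These were tested with edgeR 4.0.16 (quasi-likelihood F test, TMM, R 4.3.3) over 18 libraries in 4 groups, without H9 and H13, as in the study, with Benjamini-Hochberg adjustment and a threshold of 0.05. Adjusted p-values of AS CORT against AS vehicle, WT CORT against WT vehicle, the interaction, the acute hippocampus (24 libraries) and the liver (20 libraries) are all from edgeR. CPM values are counts scaled by TMM, and marker levels are means of log2 CPM with a prior count of 2. The p-values of 5 against 4 mice set the group difference against the spread between mice. This spread was estimated over all 18 libraries and moderated across genes. No pair of AS replicates differed by as little as sampling noise (chi-square per degree of freedom at least 4.44). PC scores came from the variance stabilizing transformation of DESeq2 1.42.0 and were compared by exact permutation, two-sided. The edgeR and DESeq2 fits were tested on simulated data.

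The genes named were Ube3a, Nr3c1 and Nr3c2, the 12 raised and 12 lowered genes of smallest adjusted p without overlap between the groups, the 5 raised and 5 lowered genes of largest change with at least 1 CPM in the higher group, up to 6 members of smallest p from each of 37 gene lists, and the 5 genes of smallest interaction p. Angptl4, Bdnf, C1qa, Csf1r, Dcx, Dusp1, Gfap, Gja1, Glul, Klf9, Klf15, Map3k6, Mbp, Pdgfra, Pot1b, Sgk1, Slc7a10 and Tsc22d3 lie outside this rule and were chosen after their values were seen. Members and lists were chosen with earlier results of these data known. Alternatives were the Wald test of DESeq2, other size factors, limma-voom (limma 3.58.1), 1 surrogate variable (sva 3.50.0), a choroid plexus covariate, removal of GC and length trends, no filter, an adjusted p-value under 0.01, all 20 libraries, only the 9 AS libraries and each AS library left out. Leaving out H4 and H14, or H6 and H17, was chosen after seeing the data.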

Additional observations from a re-analysis of the deposited data

Results flagged for a closer look

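Of 234 groups of values examined for a single mouse far from the others (the gap to the nearest mouse as a share of the group's range, Dixon's 95% critical value), 12 were past the limit. Chance alone flags about 1 in 20 such groups.

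H14 accounted for 5 of the 12 among AS vehicle mice. Its mean log2 CPM of thalamus markers was 5.08 against 2.96 to 3.09 in the other 3, its PC1 score -10.01 against -1.52 to -0.521, Tril 67.2 CPM against 58.2 to 59.3, Pdgfra 55.4 CPM against 47.3 to 48.3 and Glp2r 1.56 CPM against 0.409 to 0.602. H2 had the highest Klf9 of AS vehicle mice, at 187 CPM against 164 to 168, and the lowest 2810459M11Rik, at 17.002 CPM against 20.6 to 21.1. C1ql1 was highest in H19, at 13.6 CPM against 11.96 to 12.14.

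Among AS CORT mice, H7 stood apart with Gabrr2 at 4.37 CPM against 1.61 to 2.27 and with a mean log2 CPM of astrocyte markers of 7.09 against 6.92 to 6.96. H18 was highest in Slc7a10, at 26.3 CPM against 22.98 to 23.82, and H16 in Gm47982, at 1.66 CPM against 1.11 to 1.18.

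Outside the comparison, the AS vehicle library H9 had a mean log2 CPM of thalamus markers of 7.59, above the 2.96 to 5.08 of the 4 AS vehicle libraries used.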

How the results depend on the processing

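No paired analysis was possible because AS vehicle and AS CORT mice share no replicate numbers. Of 564 genes called in AS mice (303 raised, 261 lowered), an adjusted p-value under 0.01 left 272 (160 and 112). All 20 libraries gave 221 (86 and 135, 38.9% raised against 53.7%). Limma-voom gave 872, with 419 lowered, and 1 surrogate variable 460 lowered genes and 42.9% raised. Leaving out 1 AS library gave 362 to 608 genes, 212 to 328 raised and 150 to 280 lowered, with 150 without H11 and 161 without H19. In WT mice the 436 became 178 under 0.01, 825 with 1 surrogate variable, 203 with all 20 libraries and 179 without H6 and H17. The other settings stayed within 1.5 times each count, and the interaction called 0 genes in the 20 alternatives in which it was counted. For PCA, the adjusted exact permutation p for PC1 and PC2 was 0.0317 for both with all genes tested, 0.159 and 0.0317 with log2 CPM, and 0.111 and 0.262 with all 20 libraries. Spp1, at 1.32, was at -0.044 with all 20 libraries. Of 85 named genes past the threshold, 47 stayed past it in each of 21 alternatives. Of 1783 values compared, 129 lost the threshold and 1 changed sign. The causes were not tested. Differences near the floor of 3 counts (0.138 to 0.139 CPM) were not detectable at this depth.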

Other observations

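Further members of the GR target list rose, of which the first 2 named here were picked after their values were seen. Nfkbia, the inhibitor that holds NF-kappaB in the cytoplasm, was 18.9, 15.4, 11.96 and 17.5 CPM in AS vehicle and 35.7, 27.6, 24.8, 31.4 and 30.5 CPM in AS CORT mice (log2 fold change 0.91, SE 0.13, adjusted p = 0.000205 with edgeR). Zbtb16, a zinc finger repressor, was 62.4, 42.6, 37.7 and 36.997 CPM and 87.4, 69.6, 73.2, 84.95 and 74.8 CPM (log2 fold change 0.796, SE 0.14, adjusted p = 0.0022 with edgeR). Mertk, the receptor with which astrocytes and microglia take up debris, rose by 0.86, without overlap between the groups. On the vascular side, also picked after their values were seen, Kdr, a receptor of vascular endothelial growth factor, fell by 0.63 and Cldn5, the tight junction claudin, by 0.50 on the log2 scale.

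Among the 248 genes called in both genotypes, the 96 raised genes had a median log2 fold change of 0.68 in AS and 0.50 in WT mice, with the AS value larger for 83. The 152 lowered genes had medians of -0.53 and -0.55, with the AS value the larger in size for 67. No test was made of these counts, and the genes are not independent of each other.

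H9, the AS vehicle library left out, was high in myelin markers (mean log2 CPM 8.20 against 5.49 to 6.75 in the 4 AS vehicle libraries used) and low in dentate granule neuron markers (3.44 against 5.01 to 6.11). Of the genes described above, Etnppl was 52.05 CPM, Aqp4 283 CPM, Fabp7 45.9 CPM, Plin4 5.498 CPM and Lag3 4.17 CPM in H9. These values were scaled in the fit with all 20 libraries.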
